A study of Mus musculus with 12 samples.

Results

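The comparison covered 6 of the 12 libraries of the series, the 3 BRE-negative and the 3 BRE-positive ones, chosen by their labels, with every counted gene in view. The cells were mouse embryonic stem cells of a mixed CBA, C57Bl/6 background with the genotype BRE-GFP, in which a BMP response element (BRE) drives the green fluorescent protein GFP. They grew in FCS (serum) and Lif on a layer of feeder cells and were sorted by flow cytometry on the stem cell surface antigen SSEA1 and on GFP. BRE-negative and BRE-positive cells were collected together, as a pair, on 3 occasions, so replicates 1, 2 and 3 of the groups are pairs 1, 2 and 3. The sources used here do not say whether the pairs were separate thaws or separate cultures, nor where the gates lay, and the GFP transcript was not analysed here. The other 6 libraries served only for side by side values. They came from Smad1/5 fl/fl cells (FL, 2 libraries) and Smad1/5 -/- cells (KO, 4 libraries) of a mixed CD-1, 129/Ola, C57Bl/6 background, grown in 2i + Lif on gelatin without feeders and derived from 2 parental lines, each of which gave 1 FL and 2 KO libraries. The labels do not say which of these libraries came from which line.

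Bone morphogenetic proteins (BMPs) bind paired receptor kinases at the cell surface, which phosphorylate the transcription factors SMAD1, SMAD5 and SMAD9. These join SMAD4, enter the nucleus and switch on a small set of genes that includes the Id genes, which encode inhibitors of differentiation factors, and the feedback inhibitors Smad6 and Smad7. A BRE reporter carries SMAD binding sequences taken from the Id1 gene. In serum and LIF, cells of one embryonic stem cell culture are known to differ in reporter activity, and the comparison asks which RNAs differ between reporter-negative and reporter-positive cells of the same culture.

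The 6 sorted libraries held between 25862573 and 37079106 counts. Pluripotency genes that mark embryonic stem cells were high in all 6: Pou5f1 stood between 540 and 703 CPM (counts scaled to a common library size with TMM factors), Sox2 between 467 and 629 CPM, Nanog between 291 and 555 CPM and Esrrb between 574 and 788 CPM. Of the fucosyltransferase genes whose enzymes can build the SSEA1 antigen, Fut9 was at 30.0 to 51.3 CPM and Fut4 at 1.58 to 3.08 CPM, and neither differed between the groups (log2 fold change 0.11 ± 0.06 and 0.27 ± 0.16, SE, edgeR adjusted p = 0.37 and 0.42). Both libraries of pair 1 stood apart. Replicate 1 differed from replicates 2 and 3 of its own group with a median chi-square per gene of 4.32 to 7.02, against 2.56 and 2.91 between replicates 2 and 3.

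With each library set against its partner, edgeR's quasi-likelihood test called 459 of 15435 tested genes at an adjusted p under 0.05, which is 2.97% of the genes tested. Of these, 302 (1.96%) were higher and 157 (1.02%) lower in BRE-positive cells. The differences were small, with a median size of 0.32 on the log2 scale among called genes. Differences between the pairs often exceeded those within them: the groups did not overlap in CPM for 147 of the 459 called genes (32%), beside 7.04% of all tested genes. The calls therefore rest on the pairing. When the pairs were ignored edgeR gave 0 calls, with 343 at an unadjusted p under 0.05. Leaving out pair 1 raised the count to 2225, in which 458 of the 459 remained, all but Nim1k. Leaving out pair 3 lowered it to 200, in which 166 remained. When the fit carried length and GC offsets per gene the count was 406, but the split turned from 302 higher and 157 lower to 174 higher and 232 lower (from 65.8% to 42.9% higher), with 152 of the rises and 125 of the falls shared.

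**Figure D1:**
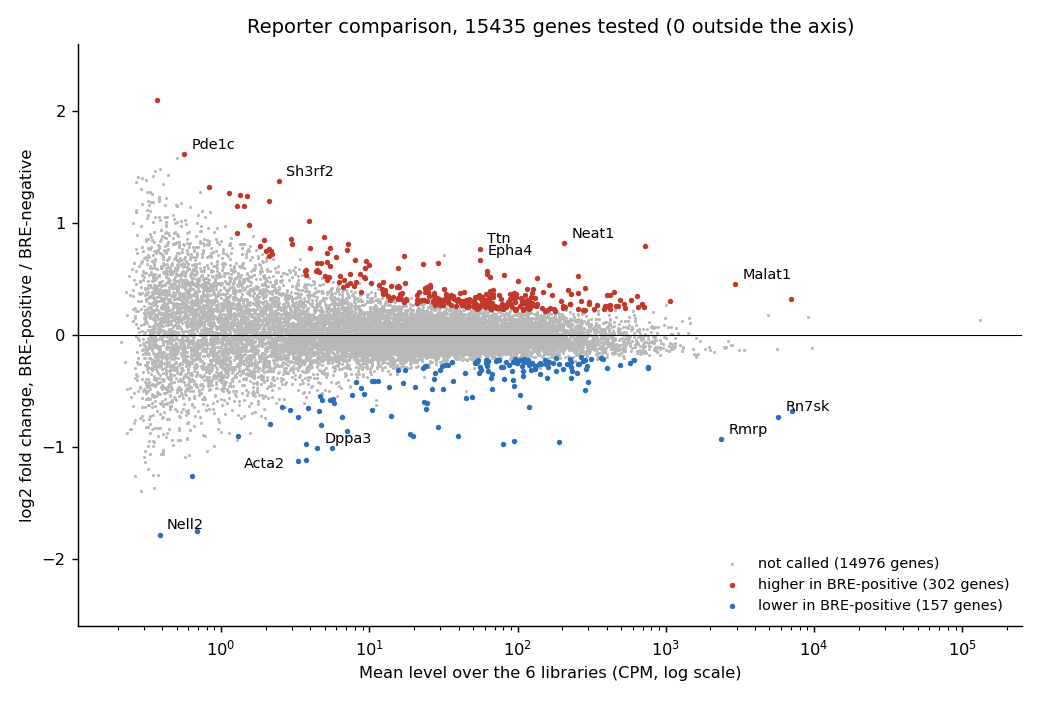
Each point is a gene, with its mean level over the 6 sorted libraries (CPM, log scale) on the x axis and its log2 fold change, BRE-positive over BRE-negative, on the y axis. The 302 called rises are red, the 157 called falls blue and all other tested genes grey. The called falls of highest level are the small RNAs Rmrp, Rn7sk and Rpph1.

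The genes by which BMP signalling is read came first, since the sort was made on a BMP reporter. Of 16 tested BMP-SMAD target genes, edgeR and DESeq2 each called 0, with 5 at an unadjusted p under 0.05 and a median log2 fold change of -0.07 (all tested genes -0.001). Id1, whose regulatory sequence the reporter borrows, stood at 18.5, 23.7 and 28.1 CPM in BRE-negative replicates 1 to 3 and at 26.9, 27.7 and 29.5 CPM in their BRE-positive partners. Id1 was thus higher in each pair, by 0.54, 0.22 and 0.07 on the log2 scale, and the groups overlapped (fitted change 0.28 ± 0.08, SE, edgeR adjusted p = 0.097). That value passed in the fit without pair 3 (edgeR adjusted p = 0.041).

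Id3, a related inhibitor of basic helix-loop-helix factors, went the other way. It stood at 15.4, 18.7 and 24.0 CPM in BRE-negative libraries and at 10.7, 18.0 and 19.4 CPM in BRE-positive cells (-0.29 ± 0.09, SE, edgeR adjusted p = 0.11, and 0.016 in the fit without pair 2). Id2 moved up in pair 1 and down in the other pairs, from 14.6, 13.4 and 26.5 to 17.6, 11.4 and 23.6 CPM (-0.04 ± 0.09). The feedback inhibitor Smad7 was at 71.7, 92.0 and 91.5 CPM in BRE-negative libraries and 80.6, 96.4 and 88.7 CPM in BRE-positive cells, and Smad6 between 3.15 and 5.00 CPM in both. Tbx3, a T-box factor that is also counted as a naive pluripotency gene, was the member nearest the threshold, at 68.9, 149 and 163 CPM against 94.0, 173 and 174 CPM (0.25 ± 0.06, edgeR adjusted p = 0.051).

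Among 22 tested ligands, receptors and transducers of the pathway, edgeR and DESeq2 again called 0, with 3 at an unadjusted p under 0.05 and a median of 0.08. The ligand gene Bmp4 was at 39.8, 42.2 and 36.9 CPM in BRE-negative libraries and 52.9, 44.2 and 35.8 CPM in BRE-positive cells, higher in pairs 1 and 2 only. Bmpr1a, which encodes a type I receptor, lay between 145 and 196 CPM, and Bmpr2, the type II receptor gene, between 16.6 and 21.1 CPM. For the transducers, Smad1 lay between 20.8 and 30.7 CPM (0.07 ± 0.07), Smad5 between 41.7 and 57.0 CPM (0.15 ± 0.06) and Smad4 between 78.7 and 87.2 CPM (0.04 ± 0.06). Bmp4, Bmpr1a, Bmpr2, Smad4 and Tbx3 are named with their values in view. The smallest change that edgeR called among all genes was 0.20, so the values of most of these members lie below the sizes that could be called here.

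**Figure D2:**
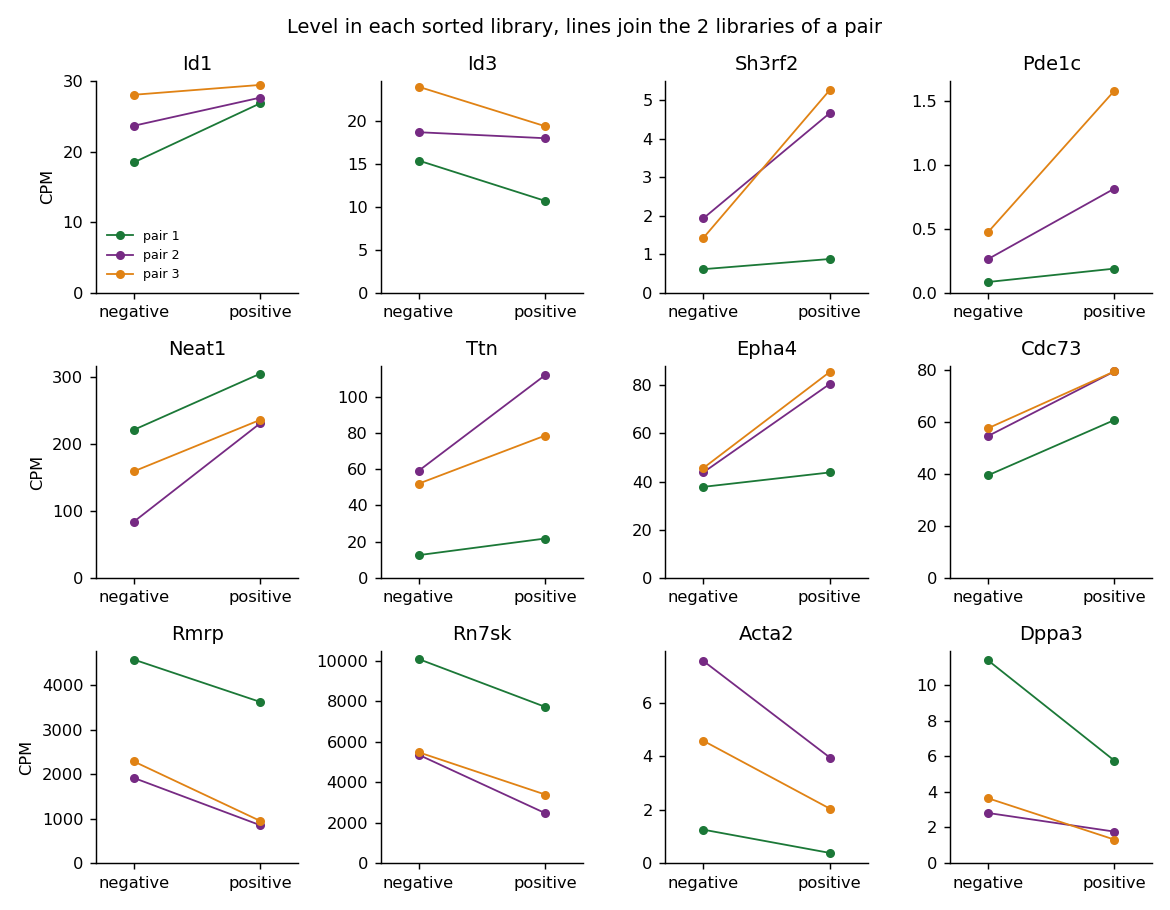
Each panel gives the level of 1 gene (CPM, y axis from 0) in the BRE-negative and BRE-positive library of each pair, joined by a line. Id1 and Id3, which were not called, have lines of opposite slope, and in the panels of Sh3rf2, Ttn, Rmrp, Acta2 and Dppa3 the pairs differ in level as much as the groups do.

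Outside the pathway, 18 genes were called at over 2-fold, 11 higher and 7 lower, and 8 of them are described here. Pde1c, which encodes a calcium- and calmodulin-dependent phosphodiesterase (chromosome 6, 56069804 to 56569103, GRCm38), stood at 0.0831, 0.262 and 0.472 CPM in BRE-negative libraries and 0.188, 0.814 and 1.58 CPM in BRE-positive cells. It was 3.06-fold higher (log2 fold change 1.61 ± 0.36, SE, edgeR adjusted p = 0.028), was not called without pair 2 (adjusted p = 0.062), was too rare to be fitted without pair 3 and did not pass with the length and GC offsets (adjusted p = 0.051). Sh3rf2, the gene of a RING finger and SH3 domain protein, was at 0.61, 1.93 and 1.42 against 0.875, 4.67 and 5.27 CPM, a small difference in pair 1 and a large one in pairs 2 and 3. Adam4, of the ADAM metalloprotease family, was at 0.887, 0.818 and 0.945 against 1.59, 2.47 and 2.31 CPM, and its groups did not overlap (1.24 ± 0.22, edgeR adjusted p = 0.009).

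Among the large falls, Nell2, which encodes a secreted protein with EGF-like repeats, went from 0.333, 0.884 and 0.574 to 0.0625, 0.298 and 0.154 CPM, with no overlap (-1.78 ± 0.42, SE, edgeR adjusted p = 0.034). Its call was lost without pair 2 (adjusted p = 0.076) and without pair 3 (0.096). Rhox5, an X-linked homeobox gene known to be silenced by DNA methylation, went from 3.10, 6.48 and 5.67 to 1.13, 3.31 and 2.73 CPM and so fell in every pair (-1.12 ± 0.15, edgeR adjusted p = 0.0015). Dppa3, also called Stella and a marker of naive cells, went from 11.4, 2.81 and 3.64 to 5.75, 1.76 and 1.31 CPM, with pair 1 the highest in both groups. DESeq2 called neither Rhox5 nor Dppa3. Acta2, smooth muscle actin, went from 1.25, 7.59 and 4.59 to 0.375, 3.96 and 2.04 CPM, with pair 1 the lowest in both groups. Eif2s3y, a translation factor gene on the Y chromosome, had 10, 43 and 45 counts in BRE-negative and 7, 7 and 14 in BRE-positive libraries, and its call was lost without pair 2 (log2 fold change -1.13, edgeR adjusted p = 0.20, against -1.75 with all pairs). It was too rare to be fitted without pair 3. In the gelatin-grown Smad1/5 libraries Eif2s3y had 0 or 1 count. Other Y genes, chosen after their values were seen, were not called. Ddx3y had 19, 31 and 23 counts in BRE-negative and 6, 18 and 11 in BRE-positive libraries, and Uty 2, 26 and 16 against 0, 10 and 8. Kdm5d, at 2, 3 and 2 against 0, 7 and 2, was not lower in every pair. All had 0 or 1 count in the gelatin-grown libraries.

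Genes of higher level moved less but on firmer counts. The 8 largest rises among called genes with a mean of at least 20 CPM were those of Neat1, Ttn, Epha4, Dleu2, Rbm4, Ubn2, Cdc73 and Zfp961. Neat1, the long noncoding RNA on which nuclear paraspeckles form, stood at 221, 83.8 and 159 CPM in BRE-negative libraries and 305, 231 and 236 CPM in BRE-positive cells. The groups did not overlap, and the rise was 1.77-fold (0.82 ± 0.13, SE, edgeR adjusted p = 0.0047), and 0.52 in the fit without pair 2. DESeq2 did not call Neat1 (adjusted p = 0.12), nor Epha4 (0.07). Ttn, the gene of the giant muscle protein titin, was at 12.5, 59.1 and 52.0 against 21.7, 112 and 78.6 CPM (0.77 ± 0.07, edgeR adjusted p = 8.46e-05), and at 0.45 with the length and GC offsets. Its exons sum to 117 kb.

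Epha4, an ephrin receptor kinase, was at 37.8, 43.8 and 45.6 CPM in BRE-negative libraries and 43.8, 80.6 and 85.6 CPM in BRE-positive cells, so that most of its rise lay in pairs 2 and 3 (0.67 ± 0.10, edgeR adjusted p = 0.0037). Cdc73, a subunit of the PAF1 complex that travels with RNA polymerase, rose evenly in the pairs, from 39.4, 54.5 and 57.5 to 60.7, 79.4 and 79.4 CPM, without overlap (0.54 ± 0.06, edgeR adjusted p = 2.95e-04). Dleu2, the host RNA of the miR-15a and miR-16 precursors, was at 19.4, 20.8 and 27.9 against 33.7, 31.2 and 41.1 CPM (0.65 ± 0.07). Rbm4, an RNA-binding regulator of splicing, was at 13.7, 19.3 and 21.9 against 26.3, 28.8 and 28.7 CPM (0.63 ± 0.09), and Ubn2, which works with the HIRA histone chaperone, at 41.7, 48.3 and 59.6 against 57.1, 78.6 and 87.8 CPM (0.57 ± 0.06). For Cdc73, Dleu2 and Rbm4 every BRE-positive library lay above every BRE-negative one.

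The largest coherent group of changes was a fall of the replication-dependent histone genes. These intronless genes supply the histones of new chromatin, are transcribed mainly in S phase, and end their messenger RNAs not in a poly(A) tail but in a conserved stem-loop, bound by the protein SLBP. The deposited counts held 65 genes with a histone cluster name (Hist1 to Hist4), of which 58 were tested. The set was taken by name, so it holds the pseudogene Hist3h2bb-ps, and not every member need have all of these features. Of the 58, 38 were called lower and 0 higher, beside the 1.02% of all tested genes called lower. They made up 24.2% of all falls. The median log2 fold change of the 58 was -0.28, and it was -0.17, -0.29 and -0.40 in pairs 1, 2 and 3. Near-identical copies share reads, so the value of any single copy is uncertain, and the levels were therefore also summed by histone class.

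All 5 classes were lower in BRE-positive cells in every pair. H4 genes summed to 3410, 3063 and 3109 CPM in BRE-negative libraries and 3133, 2380 and 2136 CPM in BRE-positive replicates 1 to 3, which is 91.9%, 77.7% and 68.7% of the partner library. The linker histone H1 summed to 3737, 2459 and 2596 against 3179, 2134 and 2109 CPM (85.1%, 86.8% and 81.2%). H3 went from 1310, 964 and 991 to 1134, 872 and 757 CPM. H2A stood at 88.8%, 81.1% and 75.4% of the partner and H2B at 92%, 83.3% and 77.7%. The fall was thus smallest in pair 1 for H2A, H2B and H4, and the level of pair 1 was the highest in both groups for every class.

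**Figure D3:**
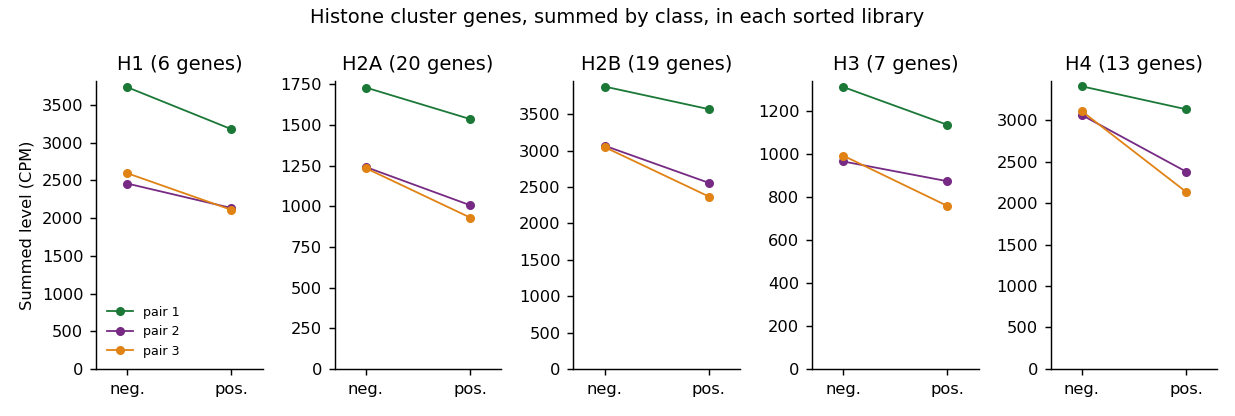
Summed CPM of the histone cluster genes of each class (y axis from 0) in the BRE-negative and BRE-positive library of each pair, joined by a line. All 15 lines go down, and the pair 1 libraries lie above the others.

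Single genes followed the same course. Among the called genes, Hist1h4h had the largest fall, from 373, 303 and 308 to 328, 206 and 185 CPM (-0.49 ± 0.08, SE, edgeR adjusted p = 0.0054, and 0.056 with DESeq2), followed by Hist3h2ba (-0.46 ± 0.08) and Hist2h4 (-0.45 ± 0.07). The falls were not confined to the large Hist1 cluster on chromosome 13. The annotation placed 31 of the 38 on that chromosome and left some called Hist1 genes without a place there. Called genes outside the cluster include Hist2h4 on chromosome 3, Hist3h2ba on chromosome 11 and, chosen after its values were seen, Hist4h4 (-0.40 ± 0.07, lost without pair 3). Of the 50 histone genes with a mean of at least 10 CPM, 38 were called. The count rests on pair 3: without it 7 of the 58 were called lower, against 50 without pair 1 and 32 without pair 2, and with DESeq2 it was 37. With the length and GC offsets 27 were called lower and the median was -0.24. In the knockout comparison the same genes had a median of -0.02 and edgeR gave 0 calls among 58 tested, with 2 at an unadjusted p under 0.05.

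The stem-loop shows which RNAs of this kind are meant, so it is printed for 1 gene of 4 classes, with the arms and loop in capitals and 5 flanking bases on each side. The letters searched were GGCNCT and AGNGCC around a loop of 4 bases, read 5′ to 3′ in the GENCODE M21 transcripts (GRCm38).
Hist1h4h, chr13:23531453-23531478, plus strand: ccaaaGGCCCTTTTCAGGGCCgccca
Hist1h2ab, chr13:23751567-23751592, plus strand: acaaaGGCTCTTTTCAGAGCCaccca
Hist1h3b, chr13:23752815-23752840, plus strand: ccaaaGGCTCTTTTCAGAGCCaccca
Hist1h1d, chr13:23555782-23555807, plus strand: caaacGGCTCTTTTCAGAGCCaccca
Of the 56 tested histone genes with a transcript sequence, 34 held the stem-loop (60.7%), against 145 of 15218 other tested genes (0.953%). Of these 34 histone genes, 23 were called lower, with a median of -0.27, and of the other 22, 13 were called lower, with a median of -0.29. A missing match says only that the letters are not in the annotated transcript.

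General cell cycle genes gave a single call. Of 22 tested, 0 were called higher and 1 lower, with a list median of -0.01. The called gene was Ccnd1 (cyclin D1, -0.26 ± 0.06, SE, edgeR adjusted p = 0.035), lost without pair 2 and without pair 3. In the list 6 genes had an unadjusted p under 0.05, and 9 values lay above 0 and 13 below. Among other G1 cyclin and kinase genes, Ccnd2, Cdk4, Ccne1 and Ccne2 were at -0.29, -0.17, -0.16 and -0.12. Ccnd3, Cdk6 and Cdk2 were at 0.05, 0.02 and -0.01. These were not called and are named with their values in view. The proliferation marker Mki67 stood at 469, 513 and 531 CPM in BRE-negative libraries and 494, 568 and 591 CPM in BRE-positive cells, and Mcm5, a subunit of the replicative helicase, at 706, 736 and 615 against 664, 745 and 602 CPM. Pcna, the DNA polymerase clamp, was at 318, 413 and 345 against 325, 344 and 298 CPM (-0.15 ± 0.06, edgeR adjusted p = 0.21). Slbp, chosen like Mki67, Mcm5 and Pcna after its values were seen, was at 169, 202 and 181 against 176, 172 and 158 CPM (-0.12 ± 0.06, adjusted p = 0.30), lower in pairs 2 and 3 only.

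A minority of small structured RNAs fell. Of 261 tested genes annotated as snoRNA, scaRNA, snRNA, ribozyme or misc_RNA, 25 were called lower (9.58%, beside 1.02% of all tested genes) and 0 higher, while 102 had values above 0 and the median was -0.10. DESeq2 called 16 lower and left many rare ones without an adjusted p. The 3 most abundant of the called RNAs are made by RNA polymerase III. Rmrp, the RNA of RNase MRP (chromosome 4, 43492788 to 43493058, GRCm38), went from 4584, 1916 and 2287 to 3628, 848 and 944 CPM (-0.93 ± 0.13, SE, edgeR adjusted p = 0.0017). Rn7sk, which holds the elongation factor P-TEFb inactive, went from 10092, 5354 and 5478 to 7724, 2464 and 3385 CPM (-0.73 ± 0.10, edgeR adjusted p = 0.0014). Rpph1, the RNA of RNase P, went from 10244, 7196 and 8184 to 9118, 3482 and 4635 CPM (-0.68 ± 0.11, edgeR adjusted p = 0.0061). For each of these the fall was smallest in pair 1 and pair 1 was the highest in both groups, and the groups overlapped. Together the 3 RNAs took 2.49%, 1.45% and 1.59% of the scaled counts in BRE-negative and 2.05%, 0.679% and 0.896% in BRE-positive libraries.

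Single nucleolar RNAs were also called. Snora73b, a box H/ACA small nucleolar RNA, went from 200, 56.6 and 56.2 to 111, 30.6 and 23.7 CPM (-0.98 ± 0.07, SE, edgeR adjusted p = 1.54e-05), and Rnu3a, the U3 RNA of ribosomal RNA processing, from 363, 33.3 and 35.9 to 236, 22.9 and 20.7 CPM (-0.65 ± 0.06, edgeR adjusted p = 1.70e-04). In both, pair 1 was several times higher than the other pairs in both groups. Scarna6, a Cajal body RNA, fell by 0.90 and Rprl3, an RNase P RNA-like gene, by 0.82 on the log2 scale. Terc, the telomerase RNA, fell less (-0.25 ± 0.06, edgeR adjusted p = 0.034), and did not pass with the offsets, without pair 2 or without pair 3. Of 79 tested genes named as snoRNAs or scaRNAs 6 were called lower, 27 had values above 0 and the median was -0.10. How well the kit recovered RNAs this short was not tested.

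Long nuclear RNAs had the opposite sign. Of 12 tested, 3 were called higher (25%, beside 1.96% of all tested genes) and 0 lower, and all 12 had values above 0 (median 0.47). DESeq2 called 1 of the 12 higher. Their exons summed to a median of 9.51 kb, and with the length and GC offsets the median was 0.32 and 3 were called higher. The share of calls was lower for long noncoding RNAs in general: of 288 tested lincRNAs 5 were called higher (1.74%) and 2 lower. Their values leaned the same way, with 187 above 0 and 101 below. Their median was 0.13 (0.03, 0.15 and 0.17 in pairs 1 to 3), and 0.12 with the offsets. Besides Neat1 the called RNAs of the list were Malat1 and Tsix. Malat1, an abundant RNA of nuclear speckles, was at 3404, 1721 and 2399 CPM in BRE-negative libraries and 4065, 2637 and 3375 CPM in BRE-positive cells (0.45 ± 0.06, SE, edgeR adjusted p = 0.0024). Tsix, the antisense partner of Xist, was at 5.88, 6.81 and 8.44 against 8.35, 9.90 and 12.8 CPM (0.55 ± 0.10, edgeR adjusted p = 0.0077). Malat1 rose in each pair, although its level in BRE-negative replicate 1 was above that in BRE-positive replicates 2 and 3. No source used here gives the strand setting of the counting, so Tsix and Xist reads may not be told apart.

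Genes of chromatin regulation were another group with calls in 1 direction. Of 39 tested histone lysine methyltransferase and demethylase genes, 8 were called higher and 0 lower (20.5% higher, beside 1.96% of all tested genes), with a median of 0.06. Kmt2c, which encodes an enhancer histone methyltransferase, went from 91.9, 156 and 165 to 125, 222 and 217 CPM (0.45 ± 0.05, SE, edgeR adjusted p = 6.10e-04). Kmt2a, the MLL1 gene, went from 64.9, 79.4 and 86.5 to 76.5, 108 and 116 CPM (0.37 ± 0.06, edgeR adjusted p = 0.0045), and Kmt2d from 90.9, 75.7 and 92.2 to 97.8, 114 and 115 CPM, without overlap (0.34 ± 0.07, edgeR adjusted p = 0.027, lost without pair 2). The others were Setd1b (0.44 ± 0.10) and, chosen like Kmt2d after their values were seen, Kmt2e, Ash1l, Kdm7a and Setd5. Setd1b, Kmt2e and Setd5 were lost without pair 2 and without pair 3, and Ash1l and Kdm7a without pair 3. The count was 10 without pair 1, 4 without pair 2 and 3 without pair 3.

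Zinc finger genes of the Zfp type had 9 rises and 0 falls among 341 tested (2.64%, near the background of 1.96%), with a median of 0.07. Zfp961 was at 49.6, 72.8 and 72.2 CPM in BRE-negative libraries and 63.9, 104 and 120 CPM in BRE-positive cells (0.54 ± 0.07, SE, edgeR adjusted p = 8.66e-04). Zfp57, a keeper of imprints that was chosen after its values were seen, was among the others (0.24 ± 0.05), and was lost without pair 2 and without pair 3. Chromatin remodeller genes had 2 rises among 45 tested, Ino80d (0.36 ± 0.05) and Chd9 (0.27 ± 0.06, lost without pair 3). Kinesin and dynein genes had 3 among 56, Dync2h1, Dnah8 and Kif1a. Solute carrier genes had 4 among 236 (1.69%, below the 1.96% of all tested genes), led by Slc38a5 and Slc5a3. Large ubiquitin ligase genes had 2 among 23, Huwe1 and Ubr4. Dync2h1, Slc38a5, Huwe1 and Ubr4 were lost without pair 2 and without pair 3, and Kif1a without pair 3. None of these 4 families had a fall.

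The difference between the groups went with transcript length over all protein-coding genes. Exons summed to a median of 8.12 kb for the tested methyltransferase and demethylase genes, 0.555 kb for the histone genes and 4.07 kb for all tested genes. Spearman's rho between exon length and log2 fold change was 0.271 across 13640 such genes (genes are no independent replicates), and it was 0.194, 0.168 and 0.233 within pairs 1, 2 and 3. The median log2 difference went from -0.061 in the 2729 shortest genes (up to 2.46 kb) to 0.067 in the 2728 longest (from 7.61 kb), and in the same direction in each pair. The 2728 longest genes held 65.8% of the 272 protein-coding rises with a length, and 6.56% of them were called higher. Beside that share, the methyltransferase and demethylase genes had 20.5% called higher. Remodeller genes had 4.44%, kinesin and dynein genes 5.36% and large ubiquitin ligase genes 8.7%, at median exon lengths of 7.93, 7.21 and 9.13 kb. Among the 2729 shortest, 32 of 48 histone genes were called lower (66.7%) and 32 of the other genes (1.19%), whose median was -0.06. In the knockout comparison rho was -0.00822. No source used here gives RNA integrity values, and the part of RNA quality in this length trend was not tested.

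With offsets for length and GC content in the same paired fit, rho was 0.05. The median of the methyltransferase and demethylase genes became -0.02, and 4 stayed above the threshold, Kmt2a (0.25, edgeR adjusted p = 0.01), Kmt2c (0.27, 0.0074), Kmt2d (0.22, 0.039) and Setd1b (0.40, 0.031). The median of the Zfp genes became 0.01, with 4 rises and 2 falls, that of the large ubiquitin ligase genes -0.04 and that of the remodeller genes -0.03, and solute carriers had 2 rises and 2 falls. Of the 8 abundant rises described above, all passed with the offsets, Cdc73 at 0.28 and Rbm4 at 0.61. Huwe1 (0.07), Chd9 (0.07), Ubr4 (0.14), Dnah8 (0.16) and Dync2h1 (0.20) did not pass.

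**Figure D4:**
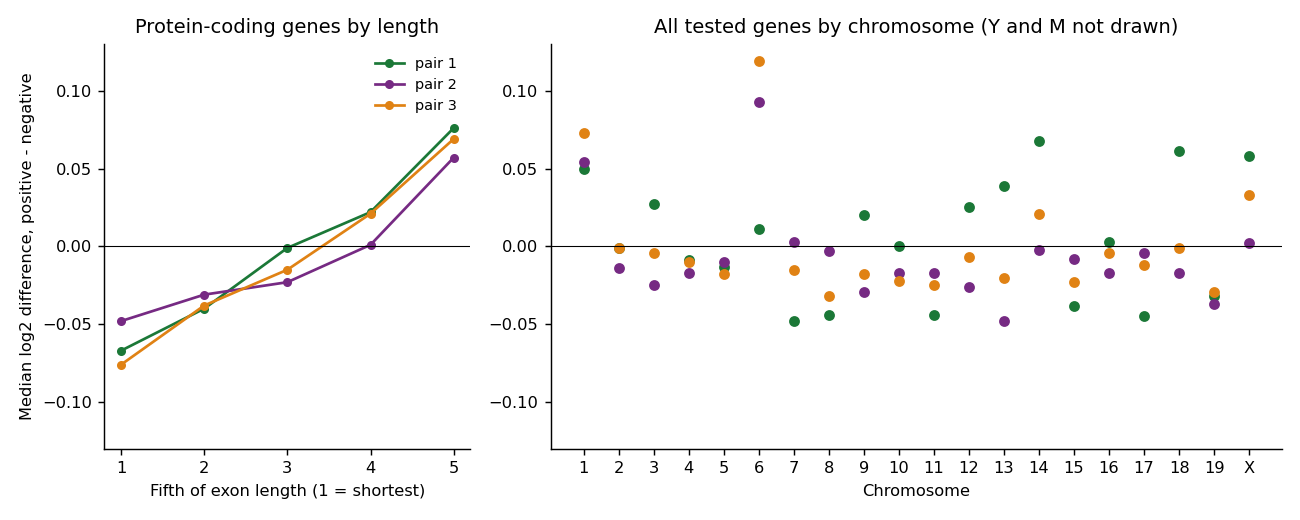
Left, the median log2 difference between the BRE-positive and BRE-negative library of each pair for protein-coding genes in 5 equal bins of exon length. Right, the same median for all tested genes of each chromosome, without Y and the mitochondrial genome. The medians go up with length in each pair, and on chromosome 1 all 3 pairs lie above 0.

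Transcripts of the mitochondrial genome, which encode subunits of the respiratory chain and the ribosomal RNAs of the organelle, rose, at a median exon length of 1.09 kb. Of 10 tested, 6 were called higher (60%, beside 1.96% of all tested genes) and 0 lower, all 10 had values above 0, and the median was 0.31. Subunit gene mt-Nd2 went from 171, 229 and 232 to 260, 307 and 337 CPM, without overlap (0.52 ± 0.05, SE, edgeR adjusted p = 2.95e-04), and mt-Nd5 from 180, 278 and 277 to 275, 328 and 366 CPM (0.42 ± 0.06, edgeR adjusted p = 0.0042). The ribosomal RNA mt-Rnr1 went from 5199, 6474 and 7054 to 7260, 7520 and 8441 CPM (0.32 ± 0.06, edgeR adjusted p = 0.011). Its call was lost without pair 3 and with the length and GC offsets. All 15 listed genes summed to 125421, 140347 and 146166 CPM in BRE-negative libraries and 158290, 144353 and 153330 CPM in BRE-positive libraries, so the sum rose most in pair 1. Most of this sum was the ribosomal RNA mt-Rnr2, which was not called (0.13 ± 0.06, edgeR adjusted p = 0.27). It was at 113755, 127733 and 132478 against 143086, 129889 and 137105 CPM, so the sum mainly follows this 1 RNA. Of the list, 5 genes were called with the length and GC offsets, with a median of 0.18, and 4 were called without pair 3 and 7 without pair 2.

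Nuclear genes for the same organelle gave a single call. Of 89 tested genes of oxidative phosphorylation, 0 were called higher and 1 lower, Uqcrq of complex III (-0.31 ± 0.08, SE, edgeR adjusted p = 0.046). Uqcrq was lost without pair 2, without pair 3 and with the length and GC offsets. Of the 89, 76 had values below 0 (median -0.10). Without pair 1, 23 were called lower. Among 75 mitochondrial ribosomal protein genes edgeR and DESeq2 called 0, with 14 at an unadjusted p under 0.05 and a median of -0.06. Cytoplasmic ribosomal protein genes had 86 of 87 values below 0 and a median of -0.14, but a single call, Rpl11, at 340, 300 and 283 against 274, 282 and 234 CPM (-0.22 ± 0.06, edgeR adjusted p = 0.048, lost without pair 3). Their exons summed to a median of 1.73 kb, and with the offsets their median was -0.12 and 6 were called lower. Without pair 1, and likewise without the low-count filter, 37 were called lower.

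Pluripotency genes gave few calls. Among 11 core factors edgeR called 0 and DESeq2 called 1, with 4 at an unadjusted p under 0.05 (median -0.03), and Pou5f1 went from 691, 703 and 587 to 656, 686 and 540 CPM. Of 20 naive genes Jam2 rose (5%, beside 1.96% of all tested genes) and Dppa3 and Socs3 fell (10%, beside 1.02%), with a median of 0.01. Jam2, a junctional adhesion molecule, was at 54.2, 79.2 and 121 against 81.5, 112 and 156 CPM (0.48 ± 0.06, SE, edgeR adjusted p = 7.88e-04). Socs3, the feedback inhibitor of the LIF and STAT3 pathway, was at 136, 109 and 106 against 115, 89.7 and 85.8 CPM (-0.27 ± 0.05, edgeR adjusted p = 0.013, lost without pair 3). Of 17 primed epiblast genes, Dnmt3b and Zic2 fell (11.8%, beside 1.02% of all tested genes) and 14 had values below 0 (median -0.13). Dnmt3b, a de novo DNA methyltransferase, went from 167, 123 and 72.6 to 132, 92.6 and 63.3 CPM. Zic2 went from 7.57, 14.5 and 13.9 to 6.31, 10.4 and 10.1 CPM and was lost without pair 2 and without pair 3.

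**Figure D5:**
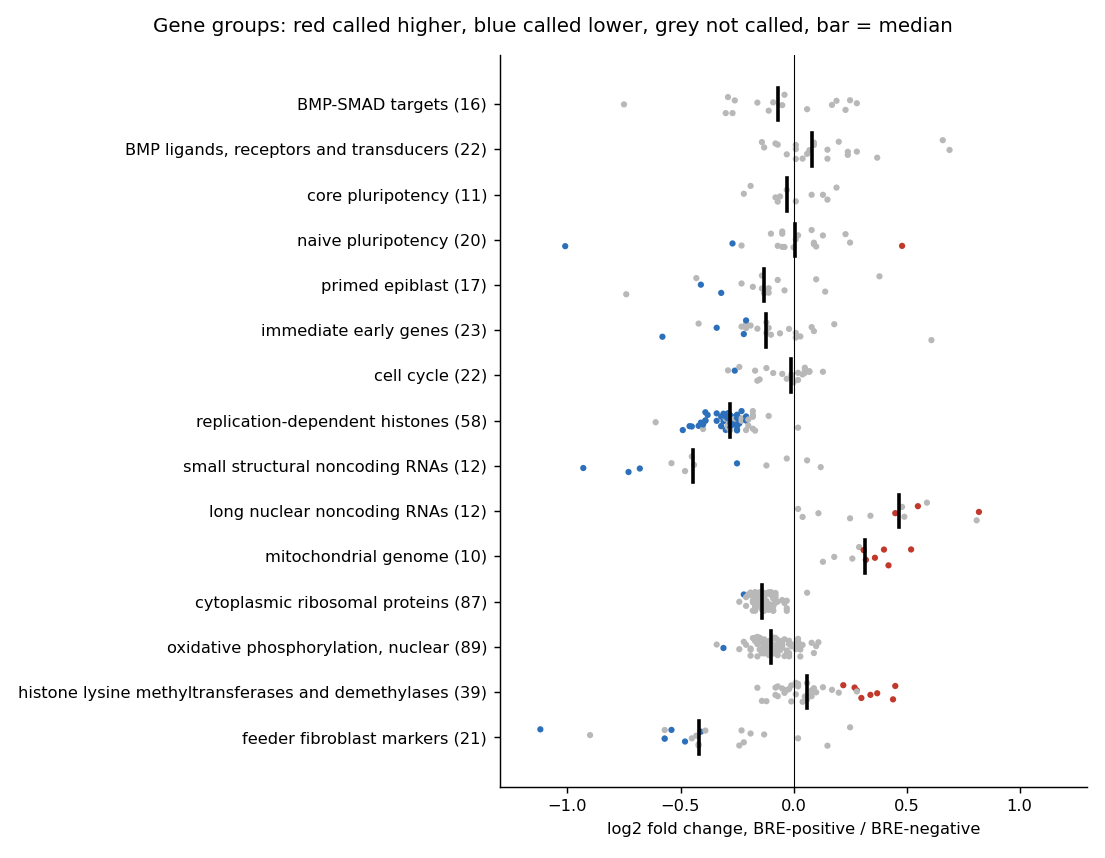
Log2 fold change, BRE-positive over BRE-negative, of every tested member of 15 gene groups (number tested in parentheses). Red points were called higher, blue points called lower and grey points not called, with the vertical placement within a row random and a black bar at the median. The 2 BMP groups hold grey points only, and the histones hold 38 blue ones.

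Of 23 immediate early genes 4 fell (17.4%, beside 1.02% of all tested genes) and 0 rose (median -0.12). Egr2, a zinc finger factor induced by growth signals, was at 7.01, 6.41 and 6.04 CPM in BRE-negative libraries and 4.22, 4.83 and 3.96 CPM in BRE-positive cells, without overlap (-0.58 ± 0.12, SE, edgeR adjusted p = 0.019). Jun was lower mostly in pair 1, from 67.7, 38.4 and 42.6 to 45.3, 35.9 and 33.9 CPM. The others were Ier2 and, chosen after its values were seen, Cyr61. Both were lost without pair 2, without pair 3 and with the length and GC offsets. Of 17 FGF-ERK feedback genes, Spry2 (0.23 ± 0.05) and Phlda1 (0.52 ± 0.11) rose (11.8%, beside 1.96% of all tested genes) and Ccnd1 fell (5.88%, beside 1.02%). Spry2 was lost without pair 2 and without pair 3, and Phlda1 without pair 2. The NODAL antagonist Lefty1 fell from 63.2, 44.1 and 68.0 to 31.0, 36.5 and 52.7 CPM (-0.56 ± 0.11, edgeR adjusted p = 0.013, but 0.22 with DESeq2). In the let-7 and HMGA list, Hmga2, an architectural chromatin protein, went from 4.24, 4.45 and 3.27 to 6.44, 7.62 and 6.54 CPM without overlap, and Mycn, of the MYC family, from 105, 62.8 and 68.6 to 76.0, 45.1 and 48.1 CPM (-0.48 ± 0.05, edgeR adjusted p = 3.90e-04).

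Markers of cell types other than stem cells were read because the cultures held feeder fibroblasts. Of 21 tested feeder fibroblast markers 5 were called lower (23.8%, beside 1.02% of all tested genes) and 0 higher, 18 had values below 0, and the median was -0.42. The called genes were Acta2, Tagln (lost without pair 3), Lox, Col1a2 and, chosen after its values were seen, Fbln2. With RLE scaling 3 were called, with DESeq2 2 and without pair 2 9. Col1a2, a chain of type I collagen, went from 16.0, 36.9 and 37.8 to 8.16, 32.5 and 28.0 CPM (-0.48 ± 0.11, SE, edgeR adjusted p = 0.028), while Col1a1, the other chain, chosen with Fn1 after the values were seen, was not called (-0.24 ± 0.11, edgeR adjusted p = 0.26). Fn1, fibronectin, made up most of the list's counts and was also high in the Smad1/5 libraries. It went from 1455, 1134 and 1494 to 1375, 1443 and 1711 CPM (0.15 ± 0.07, edgeR adjusted p = 0.25). Thy1 (0.25) and Pdgfrb (0.02) were the other values above 0. With Fn1 the list summed to 1572, 1366 and 1718 CPM in BRE-negative libraries and 1450, 1648 and 1889 CPM in BRE-positive, higher in pairs 2 and 3. Without Fn1 it summed to 117, 232 and 224 CPM in BRE-negative libraries, 74.5, 205 and 178 CPM in BRE-positive and 23.3 to 40.2 CPM in the gelatin-grown libraries. The BRE-positive sum was 63.6%, 88.1% and 79.4% of its partner's, and no marker was at 0 in all 6 sorted libraries. Thbs1, thrombospondin, went with them, from 23.3, 56.2 and 77.9 to 11.7, 47.8 and 52.4 CPM (-0.56 ± 0.10, edgeR adjusted p = 0.009, but 0.074 with DESeq2). In such sorted bulk samples fewer cells of a type and less RNA per cell cannot be told apart, and the part of feeder RNA in the other falls was not tested.

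Lineage markers gave 0 to 2 calls a list, where 1.96% of all tested genes were called higher and 1.02% lower. For 5 tested mesoderm genes and 10 endothelial and blood genes, edgeR and DESeq2 called 0, and 0 had an unadjusted p under 0.05. F5, coagulation factor V, was the 1 rise among 17 primitive endoderm genes (0.86 ± 0.17, SE, edgeR adjusted p = 0.014, lost without pair 3). Of the 17, 14 had values above 0 and 3 below (median 0.08), and 5 had an unadjusted p under 0.05. Cubn, named with its values in view, was the uncalled member nearest the threshold (0.68 ± 0.17, edgeR adjusted p = 0.051). Tfap2c, an AP-2 factor of trophectoderm and germ cells, was the 1 fall among 8 trophectoderm genes, from 43.1, 29.7 and 36.4 to 28.5, 21.8 and 27.5 CPM without overlap (-0.48 ± 0.07, edgeR adjusted p = 0.002). Hes6 and Tubb3 fell among 8 neurectoderm genes (25%), and Tubb3 was lost without pair 2, without pair 3 and with the length and GC offsets. Of 20 p53 target genes 19 had values above 0 (median 0.11), and 1 was called, Trp53inp1, a stress response gene (0.26 ± 0.06, lost without pair 3 and with the offsets). In a list of 23 DNA methylation enzymes and readers, Tet1, which oxidises methylated cytosine, and Zfp57 rose (8.7%) and Dnmt3b and Mbd3 fell (8.7%), with a median of 0.03. Tet1 (0.25 ± 0.05) and Mbd3 (-0.24 ± 0.06) were lost without pair 2, without pair 3 and with the offsets.

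Calls were unevenly spread over the chromosomes. Chromosome 1 held 48 rises and 7 falls among 870 tested genes (6.32% called, beside 2.97% of all), and its median was 0.050, 0.054 and 0.073 in pairs 1 to 3. Its rises include Epha4, Cdc73 and Ino80d. Chromosome 6 held 29 rises and 5 falls among 702 genes (4.84% called), with medians of 0.011, 0.093 and 0.119, so that pair 1 hardly showed it. There the rises include Pde1c, Ubn2 and, chosen after their values were seen, the signalling genes Braf (0.36 ± 0.06) and Wnk1 (0.37 ± 0.06). With the length and GC offsets Braf passed and Wnk1 (edgeR adjusted p = 0.051) did not. With the same offsets, chromosome 1 had 27 rises and 11 falls, with a median of 0.011, and chromosome 6 14 and 7, with 0.042, beside a median of -0.024 over all genes. Chromosome 13 had 5 rises and 33 falls, of which 31 were histone genes.

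Promoter letters were read for the motifs that SMAD proteins are known to bind. RefSeq promoter windows (250 bases before to 50 after the start, GRCm38.p6) matched 10653 of the 15435 tested genes by symbol, among them 204 called rises and 59 called falls. No histone gene is among these 59, so the largest group of falls was not read. The GC-rich palindrome GGCGCC was in 20.1% of the 204 windows of called rises (Wilson 95% interval 15.2% to 26.1%) and in 32.2% of the 59 of called falls (21.7% to 44.9%), beside 21.8% over all tested genes and 12% over all 27025 genes of the table. The SMAD box GTCT, on either strand, was in 81.4% and 83.1%, beside 85.5% of tested genes. The longer element GTCTAGAC, which contains it, was in 1 rise and 1 fall. These shares are descriptions of windows, and each interval covers counting error only.

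The upstream stretch is shown for 3 of the rises described above, from 20 bases before the first palindrome to 20 after the last, or to the start site, with the palindrome in capitals.
Cdc73, chr1:143702905-143703049, minus strand: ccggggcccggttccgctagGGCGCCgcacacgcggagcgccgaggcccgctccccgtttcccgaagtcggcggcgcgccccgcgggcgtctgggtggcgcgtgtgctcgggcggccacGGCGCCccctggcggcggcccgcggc
Kmt2c, chr5:25498833-25498923, minus strand: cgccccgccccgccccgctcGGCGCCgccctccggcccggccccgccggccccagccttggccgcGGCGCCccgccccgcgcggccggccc
Zfp961, chr8:71951036-71951065, plus strand: gggaagcctctcggaggccgGGCGCCgcca
Those of Cdc73 begin 136 and 37 bases before the start site, those of Kmt2c 120 and 75, and that of Zfp961 10. The window of Id2, which was not called, holds 1, at 231 bases before its start, and that of Dnmt3b, which fell, holds 2.

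The Smad1/5 libraries, which share no library with the sorted cells but differ from them in line, medium and feeders, gave a second view of the called genes. Counts over the whole genes did not set the KO libraries apart for the targeted genes: Smad1 was at 18.9 and 18.0 CPM in the FL libraries and 14.4, 17.3, 13.4 and 12.3 CPM in the KO libraries (-0.36 ± 0.14, SE, edgeR adjusted p = 0.19), and Smad5 at 33.5 and 31.2 against 29.6, 25, 32.3 and 34.5 CPM (-0.09 ± 0.13, edgeR adjusted p = 0.72). Which exons were deleted is not stated in the labels, and a whole-gene count outside the deleted part checks nothing, so these are the libraries labelled KO. Of the 459, 450 were tested in both comparisons. Of 300 reporter rises, 7 were higher and 5 lower in KO (4% called), and of 150 reporter falls 4 were higher and 1 lower (3.33%), beside 4.59% of the 14587 genes tested in both. The median log2 fold change, KO over FL, was 0.10 for the rises, -0.03 for the falls and 0.02 for all. Id1 was at 4.74 and 4.89 against 5.59, 5.43, 6.21 and 6.93 CPM (0.32 ± 0.16, edgeR adjusted p = 0.28). Id3 was higher in KO, at 4.10 and 6.70 against 10.5, 14.9, 25.1 and 27.8 CPM (1.86 ± 0.42, edgeR adjusted p = 0.049), while in the reporter comparison it was lower in each pair without being called. Epha4 was higher in both, at 115 and 119 against 225, 153, 182 and 194 CPM (0.69 ± 0.14, SE, edgeR adjusted p = 0.036). Tex15, a gene of male meiosis, was also higher in both (0.38 ± 0.06 and 0.88 ± 0.09), at 45.8 and 48.1 against 78.4, 86.0, 93.8 and 86.5 CPM.

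Opposite directions were found for Rhobtb1, an atypical GTPase gene (0.64 ± 0.14 in the reporter comparison and -2.66 ± 0.40 in KO), Megf11, an EGF-like receptor gene (0.54 ± 0.13 and -2.05 ± 0.23), Ntn1, the guidance cue netrin 1 (-0.23 ± 0.05 and 1.09 ± 0.17), and Dnmt3b (-0.32 ± 0.06 and 0.79 ± 0.18). Megf11 had 8.25 and 8.92 CPM in floxed libraries, against 1.68, 2.85, 1.76 and 1.95 CPM. The lone fall in both was Serpinf1, a secreted serpin (-0.67 ± 0.17 and -1.82 ± 0.33). Of these shared genes, all but Epha4 and Dnmt3b were chosen after their values were seen. In the reporter comparison, Megf11 and Ntn1 were lost without pair 2 and without pair 3, and Serpinf1 without pair 3. The 17 shared calls fell to 0 when the knockout fit left out FL replicate 1, to 5 without FL replicate 2, to 6 without KO replicate 3 and to 7 without KO replicate 4.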

How the data were processed

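Total RNA of each library was depleted of ribosomal RNA and sequenced with a stranded kit, per the labels' protocols. The submitters' processing notes name the counter featureCounts 1.4.6, the aligner STAR 2.4.1d, DESeq2 1.6.3, FastQC 0.11.3 and CASAVA 1.8.2, and the builds GRCm38.p4 and mm10. No source used here gives the strand setting or annotation release. The authors deposited raw counts for 39179 genes, and TPM values, which are a length-scaled signal. In the deposited TPM signal, 722 rows repeat a gene, and each gene was used once.

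On the counts, edgeR 4.0.16 in R 4.3.3 gave the main, quasi-likelihood test, with TMM scaling, the expression filter (minimum count 10, total 15), the pair as a block and Benjamini-Hochberg adjustment over all tested genes. Pairing comes from the series' design text. Same-numbered libraries deviated together from their group means (correlations across genes of 0.712, 0.589 and 0.529, against -0.545 to 0.122 for other combinations). The 6 Smad1/5 libraries were fitted apart, without a block. Errors after ± are standard errors of the fit. The series calls the samples biological replicates without naming separate cultures, so p-values reflect only how these libraries vary, which may be technical. Exon length, GC content and positions came from GENCODE M21 (GRCm38), which places 37693 of the counted genes, and promoters from RefSeq. Offsets were smooth functions of length and GC fitted per library with mgcv 1.9.3. The main edgeR fits of the reporter and knockout comparisons were tried on simulated data first, and the alternative fits were not.

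Members, lists and families were chosen with earlier results of these data known, and no list was tested as a set. Named genes are the called genes over 2-fold, the 8 largest rises and falls with a mean of at least 20 CPM, up to 3 called genes of each list or family and 12 genes of BMP signalling, pluripotency and SSEA1. Predicted genes and pseudogenes were left out, and any further gene was chosen with its values in view. Some genes that the rule selects are not reported here. Alternatives were no block, RLE scaling, DESeq2 1.42.0, other filters, all 12 libraries in 1 fit, limma 3.58.1 on log2(TPM + 1) or log2(TPM + 0.1), the offsets, and each pair left out.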

Additional observations from a re-analysis of the deposited data

How the results depend on the processing

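The reporter calls rest on the pair block and on the count model. Without the replicate block the count fell from 459 to 0 (0 higher, 0 lower, 343 at an unadjusted p under 0.05), although all 459 genes kept their sign. It was also 0 with all 12 libraries in 1 fit (1361 genes at an unadjusted p under 0.05) and with limma on log2(TPM + 1) (2679), on log2(TPM + 0.1) (2681) and on log2(TPM + 1) without a filter (3162). Without the low-count filter it was 1010 (534 higher, 476 lower), and with DESeq2 the rises fell from 302 to 187. The length and GC offsets left 174 rises. Leaving out each pair in turn gave 200 to 2225 calls, 132 to 1115 higher and 68 to 1110 lower. RLE scaling, the filter at 1 CPM and the lower calls under DESeq2 stayed within 1.5 times. The rho with length was 0.05 with the offsets, 0.32 with the filter at 1 CPM, 0.322 and 0.314 with limma at pseudocounts of 1 and 0.1, and 0.231 to 0.27 with 1 pair left out. Of the named genes that were called, 0 reversed under any of these settings, while values near 0 of uncalled genes did, such as Id2 (-0.20 to 0.04 with 1 pair left out) and Bmpr1a (-0.05 to 0.13). Knockout calls were 801, 1508 with DESeq2, 0 with the replicate number as a block over libraries numbered 1 and 2, which are not known to be paired, and 0 to 857 with 1 library left out. Called in both comparisons were 17 genes, 0 to 120 with 1 library or pair left out, 38 without the knockout's low-count filter, 53 without the reporter's, 48 with DESeq2 for the knockout, 10 with DESeq2 for the reporter, 0 with the knockout block, and 0 without the reporter's replicate block, with all 12 libraries or with any limma fit. With 3 pairs, small differences in rare transcripts were not detectable at this depth. DESeq2 gave no adjusted p to many low genes, which are left out of its comparisons. Rhox5, Dppa3, F5, Hmga2 and Uqcrq were also not called by DESeq2, whether by a higher adjusted p or by having none.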
